A study of Mus musculus with 6 samples.

Results

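The genes described here are C-type lectin receptors, Fc receptors, Siglecs, Cd300 receptors and the scavenger receptor Msr1, measured in mouse liver on 6 arrays. They are the array's probes whose gene name in the scanner files starts with Clec and a digit, Fcgr, Fcer, Siglec or Cd300, or is Msr1, without Clec4d, Clec4f and Clec4g. This rule took 62 of 41174 probes and 42 genes. The rule reads names only and uses no measured value, though it was set with earlier results of these data known. The livers came from male C57BL/6J mice, an inbred laboratory strain, which were 8 weeks old at the start and 20 weeks old after 12 weeks on a diet. The CFD diet was an L-amino acid-defined, iron-supplemented diet without choline and folic acid and with 0.17% methionine. Controls ate this base with 2 mg/kg of folic acid, choline bitartrate at 0.3% and methionine at 0.4% added. There were 3 arrays of each diet, numbered by replicate. The labels do not state that each array came from a separate mouse, so p-values cover only the spread among these samples, and that spread may be technical.

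Cells of the innate immune system read their surroundings through these receptors. Many of the activating ones carry no signalling motif of their own and pair with a short adaptor, the Fc receptor common gamma chain (Fcer1g) or Dap12 (Tyrobp), whose ITAM motif recruits the kinase Syk. Inhibitory relatives carry an ITIM motif in their own tail and recruit the phosphatases Ptpn6, Ptpn11 or Inpp5d. In liver the families are divided between Kupffer cells, recruited myeloid cells, sinusoidal endothelium and, for a few members, hepatocytes.

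Probes well above background numbered 21689 to 26270 per control array and 23585 to 29044 per CFD diet array. Precision is limited by the number of arrays. Signals are given relative to the 75th percentile of their own array, on a linear scale, and called relative signal. Changes are log2 fold changes of the CFD diet over control with the standard error (SE) by limma from 3 arrays of each diet, and calls needed an adjusted p below 0.05 over all 15909 tested genes. Of the 42 genes, 32 were tested, meaning that a probe was flagged well above background throughout the 3 arrays of 1 diet or of both, and 10 were not.

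Of the 32 tested genes, 20 were called higher on the CFD diet and 7 lower, and 5 were not called. In bulk liver, fewer cells of a type and less RNA per cell cannot be told apart. Over all tested genes 51.1% were called, 23.7% higher and 27.4% lower, against which 62.5% of the tested receptors were called higher and 21.9% lower. The share called lower was thus near that of the whole array, and the share called higher was not. A change of at least 1 on the log2 scale was called upwards in 16 of them and downwards in 3, beside 14.8% and 9.77% of all tested genes. The 3 CFD diet arrays lay above the 3 control arrays in 20 of the 32 and below them in 9, and the diets overlapped in 3. Ranges were separate in this way upwards for 28.4% and downwards for 34.6% of all tested genes, 63% together. The median change was 1.02 over the 32 receptors and -0.11 over all tested genes. In 6 of the 32, Clec4e, Clec5a, Clec9a, Clec2g, Clec2i and Siglecf, a probe passed only through the CFD diet arrays, which favours rises. The other 26 stood above background on all 6 arrays, and 15 of these were called higher and 7 lower. With that filter on the whole array, 19.8% of genes were called higher and 30.5% lower. Counted by probe, 28 of the 45 tested probes of these genes were called higher and 10 lower, beside 22.1% and 27.6% of all tested probes (49.7% together). More than 1 probe was tested for 11 genes, and in 9 of them every probe had the same call, the exceptions being Cd300a and Fcgr2b.

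**Figure D1:**
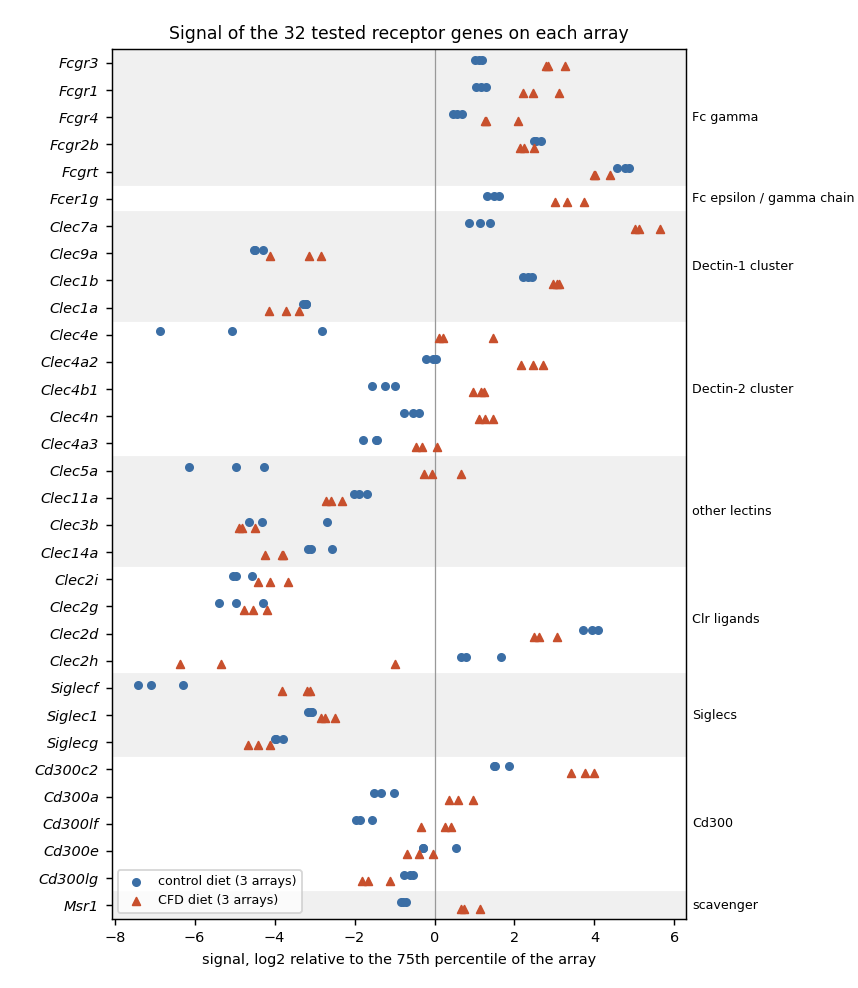
Signal of each of the 32 tested receptor genes on the 6 arrays, as log2 of the processed signal relative to the 75th percentile of the array (horizontal axis), ordered by family. Blue circles are the 3 control arrays and orange triangles the 3 CFD diet arrays. The 3 triangles lie to the right of the 3 circles in 20 genes and to the left in 9.

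The upstream sequences of 8 receptors are shown because the rises ran across families and because many genes of myeloid cells carry a binding sequence of the factor PU.1 close to their start. Each line gives the 100 bases before the annotated start in the gene's direction, from RefSeq's GRCm38.p6, with CTTCCTC in capitals, which is the PU.1 core GAGGAAG read on the other strand. Fcgr1, Fcgr3 and Fcgr4 are activating IgG receptors that were called higher, and Fcgr2b is the inhibitory IgG receptor, which was not called. Clec5a, Siglecf, Cd300a and Cd300lf are receptors of other families that were called higher.
Fcgr1: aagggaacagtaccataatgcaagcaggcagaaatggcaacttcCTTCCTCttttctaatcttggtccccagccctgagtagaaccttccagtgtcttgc
Fcgr3: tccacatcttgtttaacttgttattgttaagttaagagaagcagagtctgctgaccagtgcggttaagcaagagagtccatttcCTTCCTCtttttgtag
Fcgr4: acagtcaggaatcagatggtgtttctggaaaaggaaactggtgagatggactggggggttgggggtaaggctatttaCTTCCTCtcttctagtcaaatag
Fcgr2b: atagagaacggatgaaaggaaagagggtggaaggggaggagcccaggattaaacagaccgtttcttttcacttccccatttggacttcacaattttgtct
Clec5a: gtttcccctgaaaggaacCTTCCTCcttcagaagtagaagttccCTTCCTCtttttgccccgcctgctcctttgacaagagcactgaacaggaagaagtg
Siglecf: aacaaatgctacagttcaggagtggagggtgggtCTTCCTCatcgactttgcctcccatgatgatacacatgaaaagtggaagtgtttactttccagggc
Cd300a: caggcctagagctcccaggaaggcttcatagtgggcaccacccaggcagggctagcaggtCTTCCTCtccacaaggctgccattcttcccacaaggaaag
Cd300lf: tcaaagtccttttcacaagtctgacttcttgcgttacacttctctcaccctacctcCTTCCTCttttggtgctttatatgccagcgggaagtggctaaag
These stretches are chr3:96293970-96294069 for Fcgr1, chr1:171059395-171059494 for Fcgr3 and chr1:170976072-170976171 for Fcgr2b, all on the minus strand, and chr1:171018826-171018925 on the plus strand for Fcgr4. Clec5a lies at chr6:40585806-40585905 and Cd300lf at chr11:115133993-115134092 on the minus strand, and Siglecf at chr7:43351241-43351340 and Cd300a at chr11:114889941-114890040 on the plus strand. The first base of the match is 16 bases before the start in Fcgr3, 23 in Fcgr4, 40 in Cd300a, 44 in Cd300lf, 56 in Fcgr1 and 66 in Siglecf. Clec5a has a pair of matches, 82 and 56 bases before its start. The Fcgr2b stretch holds none. These 8 were chosen from their matches and calls, so they illustrate and do not count.

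The search itself covered every receptor with a window in the RefSeq table, 35 of the 42, from 250 bases before to 50 after the start and on both strands. GAGGAAG was found in 12 of the 35 (34.3%), and in 15.4% of the 27025 genes with windows. It was present in 7 of the 17 receptors with a window that were called higher and in 2 of the 6 called lower. TGANTCA, the AP-1 sequence, was found in 6 of the 35 (17.1%) and in 8.97% of all genes. The NF-kB sequence was found in 0 of the 35 and in 0.466% of all genes. None of the sequences searched contains another. A match is a run of letters and shows no binding.

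The Fc gamma receptors bind IgG, and their activating and inhibitory forms were not called alike. Fcgr1 encodes the high-affinity receptor, and Fcgr3 and Fcgr4 encode activating receptors for IgG in immune complexes. The relative signal of Fcgr3 was 2.15, 2.28 and 2.03 in control replicates 1 to 3 and 6.90, 7.11 and 9.63 in CFD diet replicates 1 to 3, an order kept for the values below. That of Fcgr1 was 2.22, 2.43 and 2.06 in controls and 4.63, 5.47 and 8.61 with the CFD diet. Fcgr4, which the files name Fcgr3a, measured 1.62, 1.46 and 1.38 on control and 2.38, 2.43 and 4.27 on the CFD diet. In each of the 3, every CFD diet array lay above every control array and CFD diet array 3 was the highest. The changes were 1.86 ± 0.16 for Fcgr3 (adjusted p = 0.000343), 1.43 ± 0.24 for Fcgr1 (adjusted p = 0.00349) and 0.97 ± 0.24 for Fcgr4 (adjusted p = 0.0155). The second probe of Fcgr3 was the brighter on the control arrays, at 2.79, 2.54 and 2.46, and rose by 0.51. The probes of Fcgr3 thus agreed in direction and not in size. The call of Fcgr4 ended without control replicate 3 (adjusted p = 0.0529) and with no filter on dim probes (adjusted p = 0.0595). Fcgr4 missed the rule for values by array by its size and is shown, with Fcgr2b below, because it is compared with it.

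Fcer1g, the common gamma chain that carries the signal of these 3 receptors, rose with them. Its relative signal was 2.79, 3.06 and 2.50 in controls and 8.03, 10.0 and 13.3 with the CFD diet, a change of 1.88 ± 0.20 (adjusted p = 0.000715). The diets did not overlap, and its second probe rose by 1.74.

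Fcgr2b, the inhibitory IgG receptor with an ITIM and an abundant product of sinusoidal endothelium, did not rise. It measured 6.30, 5.60 and 5.85 in controls and 4.39, 5.58 and 4.76 with the CFD diet. CFD diet array 2 lay just under the lowest control array and the other 2 clearly under it. Its change of -0.27 ± 0.14 was not called (adjusted p = 0.130). Scaling each array on its median gave -0.48 with an adjusted p of 0.0493, and leaving out CFD diet replicate 2 gave an adjusted p of 0.0373. Its 3 probes changed by between -0.37 and -0.27, and 1 of them was called over the probes (adjusted p = 0.0443).

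The unequal change of the activating chains and Fcgr2b was measured within each array. Relative to the mean of the control arrays, log2 Fcgr3 minus log2 Fcgr2b was between -0.09 and 0.16 in controls and 2.11, 1.81 and 2.48 with the CFD diet. The difference of the changes was 2.13 for Fcgr3, 1.71 for Fcgr1, 1.25 for Fcgr4 and 2.16 for Fcer1g. With the other probe of Fcgr3 the difference was 0.79. All 5 differences had an exact two-sided permutation p of 0.1 over 20 regroupings, the smallest that 3 arrays against 3 can give. That outcome was fixed beforehand, since the other chains lay above the controls on every CFD diet array and Fcgr2b lay below them. All 5 share the values of Fcgr2b, so they are not separate tests and the p-value adds nothing to the ranges. Fcgr2b, Fcgr3 and Fcgr4 are related in sequence, and whether a probe catches a neighbour's transcripts was not tested.

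Fcgrt encodes the neonatal Fc receptor, which protects IgG and albumin from breakdown and is made by hepatocytes and endothelium as well as myeloid cells. Its relative signal was 29.2, 23.8 and 27.4 in controls and 15.9, 20.9 and 16.1 with the CFD diet. All 3 CFD diet arrays lay below the controls, array 2 the least. The fall of 0.61 ± 0.16 on the log2 scale (adjusted p = 0.0180) lost its call under a slide block (adjusted p = 0.0513), with quantile normalization (-0.28, adjusted p = 0.0767), with no filter on dim probes (adjusted p = 0.0725) or without control replicate 1, control replicate 3, CFD diet replicate 1 or CFD diet replicate 3 (adjusted p between 0.0550 and 0.0634).

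**Figure D2:**
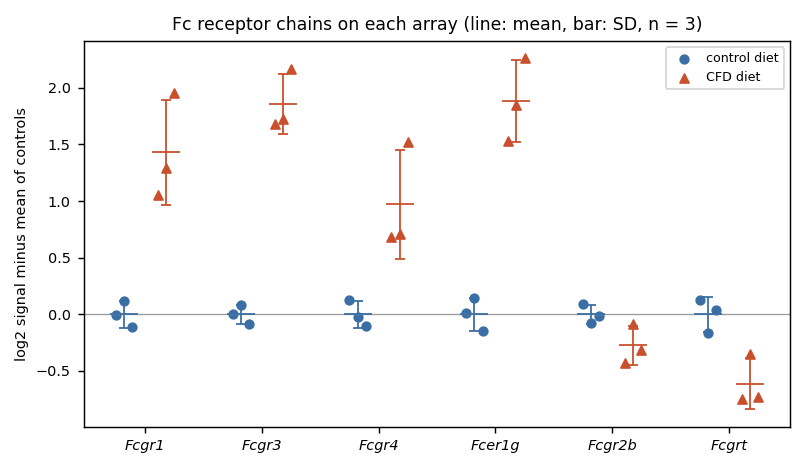
Log2 signal of 5 IgG receptor genes and the common gamma chain on each array minus the mean of the 3 control arrays (vertical axis). Circles are control arrays, triangles CFD diet arrays, lines means and bars SD with 3 arrays in each diet. Fcgr1, Fcgr3, Fcgr4 and Fcer1g lie above the controls on every CFD diet array, and Fcgr2b and Fcgrt lie below them.

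The IgE receptors were at background on most arrays. Fcer1a, the IgE-binding chain of mast cells and basophils, stood above background on 1 array of each diet. Fcer2a, the low-affinity IgE receptor of B cells, did so on 1 control array and no CFD diet array, at a relative signal of 0.0217, 0.0206 and 0.00905 on control and 0.00751, 0.00637 and 0.0087 on the CFD diet, so no fold is given. Of 8 mast cell and basophil markers, 6 were not tested (Ms4a2, Cpa3, Mcpt4, Cma1, Tpsb2 and Mcpt8), and of the other 2 Hdc rose by 1.61 and Kit fell by 0.61.

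The tested genes of the Dectin-2 cluster of chromosome 6 rose, as far as the rule, which leaves out Clec4d, takes them in. These receptors bind sugars and glycolipids of microbes and damaged cells. All 5 tested genes were called higher, beside 23.7% of all tested genes, with a median change of 2.38. The sixth gene within the rule, Clec4a1, stood above background on 1 CFD diet array only. In the files' build, mm7 (NCBI35), their probes lie between chr6:122964991 and chr6:123319699.

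Clec4e, or Mincle, signals through the common gamma chain and binds glycolipids of mycobacteria and a nuclear protein set free by dying cells. Its relative signal was 0.0299, 0.143 and 0.00856 on the control arrays, well above background on 2 of them, and 1.07, 1.15 and 2.77 with the CFD diet. The lowest CFD diet array was several times the highest control array. The change was 5.51 ± 0.97 (adjusted p = 0.00439), or 3.07 with normexp background correction, and rested on control values that differed widely among themselves.

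Clec4n, or Dectin-2, binds mannans of fungi and also uses the common gamma chain. It measured 0.764, 0.686 and 0.590 on control and 2.15, 2.40 and 2.75 on the CFD diet, a change of 1.84 ± 0.15 (adjusted p = 0.000298). Clec4b1, or Dcar, an activating receptor that pairs with the same chain, went from 0.508, 0.426 and 0.336 to 2.24, 1.95 and 2.35, a change of 2.38 ± 0.18 (adjusted p = 0.000206). The CFD diet arrays of both were close together and far above the controls.

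The DCIR genes of the cluster rose as well. Clec4a2, or Dcir1, which carries an ITIM and is inhibitory, measured 0.966, 1.03 and 0.859 on control and 4.51, 5.54 and 6.61 on the CFD diet, a change of 2.53 ± 0.17 (adjusted p = 0.000142), and its second tested probe rose by 2.60. Clec4a3, or Dcir3, went from 0.367, 0.365 and 0.287 to 0.811, 0.726 and 1.04, a change of 1.33 ± 0.18 (adjusted p = 0.00177). Activating and inhibitory members of the cluster thus lay above the controls on every CFD diet array. The genes of this cluster are near copies of one another, and cross-hybridization among them was not tested.

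Of the Dectin-1 cluster, 3 of 4 tested genes were called higher and none lower. Clec7a, or Dectin-1, binds beta-glucans of fungal walls and carries an ITAM-like motif of its own. Its relative signal was 2.60, 2.22 and 1.80 in controls and 32.3, 34.5 and 50.1 with the CFD diet. The change of 4.13 ± 0.22 (adjusted p = 9.35e-05), or 17.5-fold, was the largest rise among the receptors above background on all 6 arrays. No array of one diet came near the other diet.

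Clec1b, or Clec-2, a podoplanin receptor known from platelets, rose by 0.72 ± 0.12 (adjusted p = 0.00343). Its relative signals were between 4.66 and 5.40 on control and between 7.82 and 8.63 on the CFD diet. Of 4 tested platelet and megakaryocyte markers, Pf4 rose by 3.00, Ppbp fell by 1.16 and 2 were not called. Their mean log2 level ran from -2.87 to -2.16 on control and from -2.54 to -1.95 on the CFD diet, and their part in the rise of Clec1b was not tested. Pf4 measured between 0.469 and 0.581 on control. Kupffer cell markers were called higher in 2 of 8 and lower in 4. Which cells of the liver carried Clec1b was not tested.

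Clec9a, which marks cross-presenting dendritic cells and binds actin of dead cells, measured 0.0438, 0.0442 and 0.0507 on control, above background on 2 arrays, and 0.139, 0.0577 and 0.114 on the CFD diet. Its rise of 1.07 ± 0.32 (adjusted p = 0.0287) was close to background and ended with normexp (0.36, adjusted p = 0.155), with quantile normalization (adjusted p = 0.0528), with no filter on dim probes (adjusted p = 0.0917) and without CFD diet replicate 1, CFD diet replicate 3 or any single control replicate (adjusted p between 0.0595 and 0.0917). Of 7 tested dendritic cell markers, 4 were called higher (Itgax by 4.77, Ccr7 by 1.72 and Batf3 by 1.05 among them) and Bst2 fell by 1.35 on the log2 scale. Xcr1, a marker of the cross-presenting subset, changed by -0.39 and Zbtb46, a factor of classical dendritic cells, by -0.23, and neither was called. Their mean log2 level was between -1.87 and -1.43 on control and between -0.90 and -0.62 on the CFD diet, and their part in the change of Clec9a was not tested. Clec1a changed by -0.51 ± 0.19 and was not called (adjusted p = 0.0661). All of its CFD diet arrays lay below the controls, and it was called lower in 3 of the 15 other settings. Clec12a, an inhibitory receptor of myeloid cells, was above background on 1 CFD diet array.

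The Clr genes lie beside the Dectin-1 cluster and encode ligands of Nkrp1 receptors on natural killer cells. They did not move together: 1 of 4 tested genes was called higher and 2 lower, and the median change was -0.40. Clec2d, or Clr-b, a ligand that restrains natural killer cells and is made by many cells, measured 15.3, 13.03 and 16.9 on control and 5.65, 8.41 and 6.17 on the CFD diet. It fell on all 3 CFD diet arrays, by 1.17 ± 0.19 on the log2 scale (adjusted p = 0.00321).

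Clec2h, or Clr-f, had the deepest fall of the receptors. Its relative signal was 1.58, 3.17 and 1.74 in controls and 0.0122, 0.505 and 0.0247 with the CFD diet. CFD diet array 2 kept a signal far above the other 2 and still below every control array. The change was -5.27 ± 1.30 (adjusted p = 0.0147), and the second probe, above background on 1 CFD diet array only, gave a fitted change of -5.30. On the 3 slides, each of which held 1 array of each diet, the difference was -7.02, -2.65 and -6.14. With normexp the change was -2.96, and the call ended without CFD diet replicate 3 (-4.71, adjusted p = 0.0531) and with no filter on dim probes, at the same adjusted p.

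Clec2i, or Clr-g, rose by 0.79 ± 0.23 (adjusted p = 0.0277) at relative signals of 0.0305 to 0.0425 on control and 0.0466 to 0.0793 on the CFD diet. Those values are near background, and the call was lost under a slide block (adjusted p = 0.0657), with normexp (0.22), with quantile normalization (0.58), with no filter on dim probes and without control replicate 1 or 3 or CFD diet replicate 1 or 3 (adjusted p up to 0.379). Clec2g changed by 0.38 ± 0.30 and was not called (adjusted p = 0.318), and Clec2e was above background on 1 control array. Of 3 tested natural killer cell markers, Prf1 rose by 1.38 and none was called lower, and Ncr1, Klrk1 and Eomes were not tested. The mean log2 level of the 3 was between -4.50 and -4.05 in controls and between -3.64 and -3.30 with the CFD diet, and their part in the changes of the Clr genes was not tested.

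From chr6:128699746 to chr6:129485092 the probes of these 2 neighbouring groups run in the order Clec2h, Clec2i, Clec2g, Clec2e, Clec2d, Clec12a, Clec1b, Clec9a, Clec1a and Clec7a. In that order the genes were called lower, higher, not called, not tested, lower, not tested, higher, higher, not called and higher. Neighbours in this stretch thus differed in direction, while the tested genes of the Dectin-2 cluster did not. The calls of Clec2i and Clec9a are the weak ones here, each lost in 8 of the 14 other settings it entered.

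Among the C-type lectins outside those clusters, Clec5a stood apart. It encodes Mdl-1, which pairs with Dap12 on monocytes, macrophages and neutrophils. Its relative signal was 0.0521, 0.0321 and 0.0142 on the control arrays, above background on 1 of them, and 0.831, 0.951 and 1.60 with the CFD diet. The lowest CFD diet array lay far above the highest control array, and the fitted change was 5.23 ± 0.49 (adjusted p = 0.000435), or 2.74 with normexp. Its size is uncertain because 2 of the 3 control arrays were at background. The gene's other 2 probes were not tested.

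Clec14a and Clec11a fell. Clec14a, a glycoprotein of endothelial cells, went from 0.170, 0.118 and 0.111 to 0.0712, 0.0724 and 0.0525, a change of -1.02 ± 0.22 (adjusted p = 0.00841). Clec11a, a secreted growth factor for blood stem cells and bone, went from 0.310, 0.249 and 0.272 to 0.152, 0.201 and 0.167, a change of -0.68 ± 0.16 (adjusted p = 0.0111). The diets did not overlap in either gene, but neither call held with normexp (-0.35 with an adjusted p of 0.151 for Clec14a and -0.37 with 0.102 for Clec11a), and that of Clec11a ended with no filter on dim probes too (adjusted p = 0.0512). Clec3b, or tetranectin, changed by -0.86 ± 0.49 and was not called (adjusted p = 0.184), with control array 3 far above the other 2 controls, and without it the change was -0.26. Clec3a was below background on every array.

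The Siglecs bind sialic acids, and most of them are inhibitory. Siglecf, known from eosinophils and alveolar macrophages, measured 0.0128, 0.00581 and 0.00733 on control, above background on 1 array, and 0.110, 0.0709 and 0.116 on the CFD diet. Every CFD diet array lay several times above the highest control array. The fitted change was 3.56 ± 0.33 (adjusted p = 0.000426), or 0.78 with normexp, and its size is uncertain because 2 of the 3 control arrays were at background. Of 5 eosinophil markers, Prg2, Epx and Il5ra were not tested, Ear1 rose by 1.87 and Ccr3 was not called. The mean log2 level of the 2 tested markers was between -3.41 and -3.29 in controls and between -2.39 and -2.18 with the CFD diet, and their part in the rise of Siglecf was not tested.

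Siglec1, or sialoadhesin, a receptor of resident macrophages, rose by 0.41 ± 0.13 (adjusted p = 0.0368), between 0.112 and 0.120 on control and between 0.140 and 0.178 on the CFD diet. That call was lost under a slide block (adjusted p = 0.0777) and with normexp, median scaling (0.21), quantile normalization, no filter, a trended robust prior or any single array left out except CFD diet replicate 2, at adjusted p up to 0.282. The second probe of Siglec1, above background on 1 control array and 2 CFD diet arrays, was not tested and did not rise. It measured 0.0207, 0.0242 and 0.0243 on control and 0.0178, 0.00782 and 0.0190 on the CFD diet. Siglecg, which restrains B cells, measured 0.0728, 0.0631 and 0.0643 on control and 0.0396, 0.0576 and 0.0465 on the CFD diet, a change of -0.49 ± 0.17 (adjusted p = 0.0447). All CFD diet arrays were below the controls, but the call was lost under a slide block (adjusted p = 0.0870) and with normexp (-0.11, adjusted p = 0.721), no filter, a trended robust prior or any single array left out except CFD diet replicate 2.

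Siglech, a marker of plasmacytoid dendritic cells, was above background on no control array and on 2 CFD diet arrays, at 0.0119, 0.00831 and 0.0180 against 0.0356, 0.0259 and 0.0583. Its CFD diet mean was 1.60-fold a control level limited by background. That level is a mean over the control arrays. On each array it takes the higher of the probe's own signal and the lowest signal well above background. The CFD diet mean includes an array at background, so the ratio is no strict lower bound, and Siglech was not tested. Siglece, an inhibitory receptor of neutrophils and monocytes, was above background on 1 array of each diet.

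The Cd300 receptors recognize lipids of dying cells and come in activating and inhibitory forms. Of 7 on the array 5 were tested, and 3 were called higher and 1 lower. Cd300c2, named Cd300d in the files, is an activating member that uses the common gamma chain. It measured 2.81, 3.66 and 2.83 on control and 10.6, 13.6 and 15.8 on the CFD diet, a change of 2.09 ± 0.19 (adjusted p = 0.000409), and its second probe rose by 2.10. Cd300lf, an inhibitory member with ITIMs, went from 0.274, 0.340 and 0.258 to 1.33, 0.785 and 1.21, a change of 1.90 ± 0.23 (adjusted p = 0.00108). Both were separated completely by diet.

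Cd300a, the other inhibitory member, measured 0.352, 0.496 and 0.393 on control and 1.497, 1.27 and 1.94 on the CFD diet, a change of 1.92 ± 0.21 (adjusted p = 0.000692). The diets did not overlap on that probe. Its dimmer second probe changed by 0.33 and was not called (adjusted p = 0.376 over the probes), so the rise rests on 1 of 2 probes. Cd300lb, a Dap12-coupled member, was above background on no control array and on 2 CFD diet arrays, at 0.0159, 0.00774 and 0.00962 against 0.0290, 0.0267 and 0.0347. The ratio formed as for Siglech was 1.16. It too includes a CFD diet array at background and is no strict lower bound, and Cd300lb was not tested.

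Cd300lg, or nepmucin, is the endothelial member, and it fell. It went from 0.691, 0.590 and 0.653 on control to 0.316, 0.463 and 0.285 on the CFD diet, a change of -0.89 ± 0.20 (adjusted p = 0.0105), with CFD diet array 2 the least low, and its second probe changed by -0.81. Cd300e, an activating member of monocytes, changed by -0.35 ± 0.28 and was not called (adjusted p = 0.324). Cd300c was below background on every array.

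Msr1, the class A scavenger receptor of macrophages, takes up modified lipoproteins. It measured 0.582, 0.607 and 0.557 on control and 1.67, 1.59 and 2.22 on the CFD diet, a change of 1.63 ± 0.16 (adjusted p = 0.000476). The control arrays were nearly equal and all CFD diet arrays were above them, and its 3 probes rose by between 1.16 and 1.63.

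**Figure D3:**
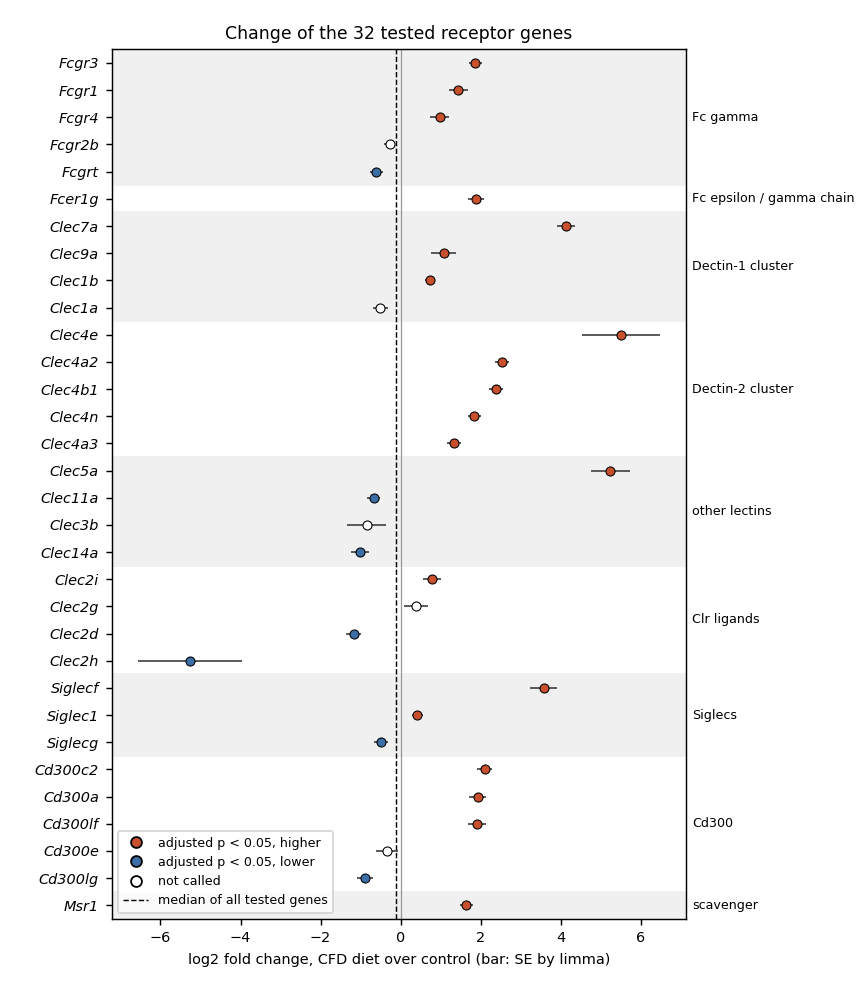
Log2 fold change of the CFD diet over control for the 32 tested receptor genes, by family, with the SE by limma as bars. Filled points were called at an adjusted p below 0.05 (orange higher, blue lower), open points were not, and the dashed line is the median of all tested genes, -0.11. The tested genes of the Dectin-2 cluster lie wholly to the right, and the Clr ligands lie on both sides.

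The arrays of the CFD diet differed among themselves. Of the 20 receptors called higher, 16 were highest on CFD diet array 3, and of the 7 called lower, all 7 were least low on CFD diet array 2. The same counts over all called genes were not made, so this order is not shown to be particular to the receptors. The hepatocyte marker list had a mean log2 level between 7.29 and 7.38 in controls and of 6.50, 6.84 and 6.42 in CFD diet replicates 1 to 3. The general myeloid list had a mean between 0.15 and 0.55 on control and of 2.12, 1.87 and 2.46 on the CFD diet. The median difference of the 32 receptors was 1.102, 0.75 and 1.40 on the 3 slides. All 27 called genes had the same sign on each slide. This had to be so, because the diets did not overlap in any of them, and it is no separate evidence.

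Markers of cell types moved beside the receptors, and their part in the changes was not tested. All 10 general myeloid markers were called higher, led by Itgam (3.87, above background on 1 control array only), Cd68 (2.58) and Lyz2 (2.21), and so were all 5 tested neutrophil markers, led by S100a8 (3.85), S100a9 (3.72) and Retnlg (2.96, above background on 1 control array only). The mean log2 level of the neutrophil list was between -3.67 and -2.98 in controls and between -0.85 and -0.28 with the CFD diet. Of 8 Kupffer cell markers, 4 were called lower (C6 by -3.60, Timd4 by -1.80 and Folr2 by -1.22 the most) and 2 higher (Marco by 1.77 and Cd5l by 0.41). Their mean log2 level was between 2.66 and 3.16 on control and between 1.45 and 2.79 on the CFD diet.

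Sinusoidal endothelial markers were called lower in 4 of 8 (Kdr by -1.14, Fcna by -0.72 and Stab2 by -0.72 the most) and higher in 1 (Lyve1 by 1.74). Stab1, Pecam1 and Cdh5 were not called. Over all tested genes 27.4% were called lower and 23.7% higher. The mean log2 level of the endothelial list was between 1.49 and 1.57 on control and between 1.16 and 1.32 on the CFD diet. Hepatocyte markers were called lower in 5 of 7 and higher in none, G6pc (-1.16), Apoa1 (-1.04) and Cps1 (-0.81) the most. The part of either cell type in the changes of Fcgr2b, Clec14a, Cd300lg and Fcgrt was not tested. Cholangiocyte markers were called higher in 6 of 6, and of 6 T cell markers 1 was called, lower (Cd4, -0.59).

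The signalling genes behind the receptors were taken from a list of adaptors, kinases and phosphatases. Of 23 tested, 18 were called higher and none lower, beside 23.7% of all tested genes called higher, with a median change of 1.25. Tyrobp, the Dap12 adaptor that serves Clec5a, rose by 2.26, from relative signals of 4.47 to 5.81 on control to 19.2 to 29.2 on the CFD diet. The largest rises were those of the adaptors Lat2 and Blnk (4.12 each) and the kinase Src (2.45). Of the phosphatases that ITIMs recruit, Inpp5d rose by 1.38 and Ptpn6 by 0.56, and Ptpn11 changed by -0.18 and was not called.

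Related receptors with other names were counted from lists, beside 23.7% of all tested genes called higher and 27.4% lower. Of 14 genes on a list of paired myeloid receptors such as the Trem and Sirp genes, 11 were called higher and none lower, with a median of 1.82. That count includes Mpeg1 (1.499 on the log2 scale), which encodes a pore-forming protein and is no paired receptor. Trem2, a lipid receptor of macrophages, rose by 6.02, the most, and Cd200r1, above background on 1 control array only, by 3.37. Trem1 was above background on no control array and was at least 3.66-fold higher (adjusted p = 0.00110). Of 8 immunoglobulin receptors 4 were called higher, Fcrls (2.19), Fcrl1 (1.81) and Cd33 (1.62) the most, each of them above background on 1 control array only, and Pigr, which carries IgA into bile, was called lower (-2.61).

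The lectins and scavenger receptors were more divided than the paired myeloid receptors. So were all tested genes, of which 23.7% were called higher and 27.4% lower. Of 23 C-type lectins with other names, 8 were called higher and 4 lower, with a median of 0.31. The collectin Sftpd (4.63), the natural killer cell chain Klrd1 (2.08) and Cd93 (2.04) rose the most. The hepatocyte products Mbl2 (-4.19), Asgr2 (-1.35) and Mbl1 (-1.18) fell the most. Of 14 other scavenger receptors, 5 were called higher, led by Scara3 (4.39), Cd68 (2.58) and Marco (1.77), and 3 lower, Stab2 (-0.72), Scarf1 (-0.49) and Scarb2 (-0.48).

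**Figure D4:**
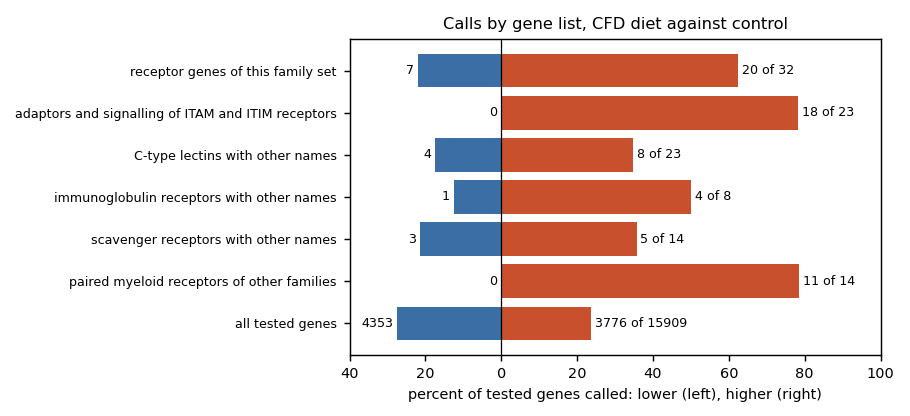
Percent of tested genes called lower (blue, to the left) and higher (orange, to the right) on the CFD diet among the receptors described here, 5 lists of related genes and all tested genes, with the numbers of genes. Of the receptors 20 of 32 were called higher, and of all tested genes 3776 of 15909.

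A few genes of the same families carry older names in the scanner files and so fell outside the rule. Among them Clec10a, a galactose-binding lectin of macrophages listed as Mgl1, rose by 1.096 ± 0.26 (adjusted p = 0.0131) and Cd300ld by 0.47 ± 0.13 (adjusted p = 0.0241). Clec16a, which is no receptor and works in autophagy, fell by 1.22 ± 0.13 on the log2 scale (adjusted p = 0.000639), Cd300ld3 changed by 0.04 and was not called, and Clec12b, Clec18a and Clec2m were not tested.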

How the data were processed

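Liver RNA was hybridized to 6 Agilent arrays with 1 dye, Cy3. The deposited scanner files hold an intensity for every spot, background-subtracted by the authors' software, Feature Extraction (version 10.5.1.1 per the file headers, 10.7 per the submitters' processing notes). The deposited value table holds intensity on a linear scale. Each of its columns ranked the spots exactly as the scanner file of another replicate of the same diet, and its column medians were 67.98, 61.49 and 67.63 for control 1 to 3 and 72.67, 73.88 and 80.59 for CFD diet 1 to 3. Replicates are numbered by the scanner files, and which numbering is intended is unknown. That table served as an alternative.

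Control and outlier spots were left out, spots of a probe were averaged, and log2 signals had the 75th percentile of their array subtracted. A gene was represented by its brightest tested probe, which gave 23482 probes and 15909 genes. limma 3.58.1 (R 4.3.3; lmFit, eBayes) compared the diets, with Benjamini-Hochberg adjustment over all tested genes, or over all tested probes where probes are named. Code was tested on simulated data. Names were updated through RefSeq's table for GRCm38.p6 (22951 probes by accession, 6659 by current and 3109 by older symbol; 8455 kept the file's name).

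Replicates with the same number share a slide and scan. Their deviations from the diet means correlated at 0.17, -0.07 and -0.01 over genes, so the numbers were not taken as pairs, and the slide was tried as a block. Other alternatives were normexp with an offset of 50, median scaling, quantile normalization, other filters, the median of probes, a trended robust prior, the value table and leaving out each array.

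The members and lists were chosen with earlier results of these data known. Values by array are given for members called with a change of at least 1 on the log2 scale and for called members that fell. They are also given for members for which a ratio to the lowest signal above background was computed. Other members are given by range. Of other lists, at most the 3 largest called changes in each direction are named, besides genes whose role the text describes, which were chosen after their values were seen. No column of samples was left unmapped (0 columns).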

Additional observations from a re-analysis of the deposited data

How the results depend on the processing

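Of the 27 called receptors, 15 were called in all 15 other settings, 13 of them higher and 2 lower (Cd300lg and Clec2d), and 3 more (Clec4e, Clec5a and Siglecf) in the 14 settings they entered, and no named receptor reversed its direction. The number called lower, 7, was 4 with normexp and 4 with no filter on dim probes, and ran from 4 to 9 when 1 array was left out. The number called higher, 20, ran from 16 to 20 with 1 array left out and was 15 of 26 with only genes above background on all 6 arrays. The median change of the receptors, 1.02, was 0.60 with no filter, where all 42 genes entered, and ran from 0.88 to 1.27 with 1 array left out. Over all genes, 4353 were called lower, 2460 with no filter and between 2770 (without control replicate 3) and 4954 with 1 array left out (2886 without CFD diet replicate 3), and 3776 were called higher, between 3113 and 3930. With the slide as a replicate block, 18 receptors were called higher and 5 lower, and 3526 and 3793 of all genes. The block ended the calls of Clec2i, Fcgrt, Siglec1 and Siglecg and of no other receptor. Median scaling moved the median change of all genes by -0.20, to -0.31, and the split of calls to 2958 higher and 5830 lower, with 19 receptors higher and 9 lower. Clec4e, Clec5a, Siglecf and Clec2h changed by 3.07, 2.74, 0.78 and -2.96 with normexp. That setting adds an offset of 50 to every signal, which by itself shrinks the changes of dim probes. The size of a change near background thus depends on the background correction and on its offset, which were not tried apart. The deposited value table, 1 of the 15 other settings, changed no call of a receptor. Its columns rank the spots exactly as scanner files of the same diet do, so it is no separate evidence.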
